A study of Arabidopsis thaliana with 8 samples.

Results

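The chloroplast genome of *Arabidopsis thaliana* carries 7 neighbouring genes that are read as one operon, *ndhH*, *ndhA*, *ndhI*, *ndhG*, *ndhE*, *psaC* and *ndhD*. Each has its own probe set on the ATH1 array (244937_at, 244936_at, 244935_at, 244934_at, 244933_at, 244932_at and 244962_at in this order), and the 7 probe sets were taken by these names, the operon itself having been picked with earlier results of these data known. They are 7 of 22746 probe sets tested, and all 7 carry the plastid gene symbol that the rule gives. RNA was taken from secondary inflorescences with closed buds only, of plants of the cultivar Columbia grown at 20 °C with 13 h of light per day. In 3 groups, T2 plants carried 35S::IaTCP1 (the gene from *Iberis amara*), 35S::TCP1 (from *A. thaliana*) or 35S::CYC (*CYCLOIDEA* from *Antirrhinum majus*). The control group was T2 plants carrying the empty vector pBAR35S. All 3 genes encode TCP transcription factors of the CYC2 clade and stood under the CaMV35S promoter, which is active in most plant tissues. The plants used had a clear flower phenotype in their main inflorescence. The study describes smaller petals in 35S::IaTCP1 and 35S::TCP1 and larger ones in 35S::CYC.

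Each of the 4 groups was measured on 2 arrays. The study's methods call these technical RNA samples of 1 T2 line. A p-value therefore says nothing of how other lines would vary, and 2 arrays a group limit the precision. Values are log2 intensities after RMA, a normalization that puts the arrays on one distribution and gives 1 value per probe set. A probe set is said to have risen or fallen when it changed at least 2-fold with an adjusted p of 0.05 or less (limma, Benjamini-Hochberg over all probe sets of a comparison). The array medians lay between 6.48 and 6.56, and the 2 arrays of a group correlated with r of 0.9967 to 0.9981 over all probe sets. Few markers of the tissue were named in the tables used. The floral meristem gene *UFO* lay between 4.77 and 5.28, near the lower quartile of the arrays (4.48 to 4.62), the root hair gene *EXPA7* between 4.25 and 4.60, and the pollen gene *AT3G07820* between 7.76 and 10.31, lowest in 35S::IaTCP1 and then in 35S::TCP1.

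Of the operon genes, 6 encode subunits of the NDH complex, a relative of respiratory complex I in the thylakoid membrane that passes electrons from ferredoxin back to plastoquinone and so serves cyclic electron flow around photosystem I. NdhA, NdhD, NdhE and NdhG lie in the membrane arm of the complex, and NdhH and NdhI in the arm that faces the stroma. PsaC is no NDH subunit but the small iron-sulfur protein at the stromal side of photosystem I that hands electrons to ferredoxin. The operon is transcribed from *ndhH* towards *ndhD*, and its long transcripts are cut, spliced within *ndhA* and edited into smaller RNAs, *psaC* and *ndhD* lying next to each other at the end. In the RefSeq annotation *rps15* is the neighbour beyond *ndhH* and *ccsA* the neighbour beyond *ndhD*.

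The genes of the operon did not move together. Transcripts of *ndhG*, *psaC* and *ndhD* rose under each of the 3 transgenes, by 2.67-fold to 7.35-fold, and *ndhE* rose under TCP1 and CYC. *ndhH* passed this rule under TCP1, and *ndhA* and *ndhI*, which lie between *ndhH* and *ndhG*, passed the rule under none. With 35S::IaTCP1 3 of the 7 rose, while 0.976% of all probe sets did. With 35S::TCP1 5 of 7 rose (0.659% of all probe sets), and with 35S::CYC 4 of 7 (1.53% of all probe sets). None of the 7 fell against the empty vector by limma's adjusted p, while at an unadjusted p under 0.05 *ndhA* was lower for IaTCP1 and TCP1. In *ndhH*, *ndhG*, *ndhE*, *psaC* and *ndhD*, 5 of 7, both arrays of every transgene lay above both empty vector arrays, as they did in 35.6% of all probe sets for IaTCP1, 32.4% for TCP1 and 32.9% for CYC. The 3 comparisons share the 2 empty vector arrays.

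**Figure D1:**
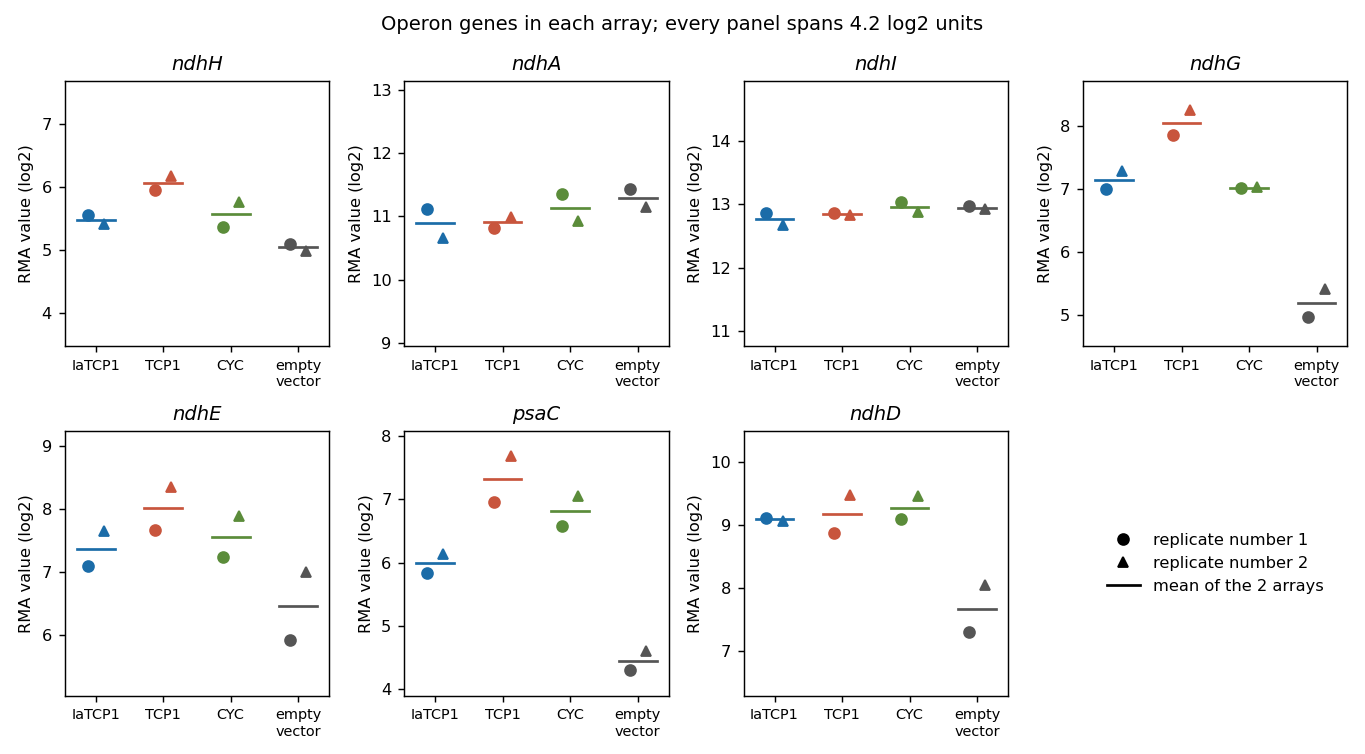
RMA values (log2) of the 7 operon genes in each array, by group, with circles for replicate number 1, triangles for number 2 and a line at the mean of both arrays. For *ndhG* and *psaC* the transgenic arrays lie between 5.83 and 8.24 and the empty vector arrays between 4.29 and 5.41, while *ndhI* stays between 12.68 and 13.04 in every array.

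Of the genes for the membrane arm, *ndhG* encodes a small subunit. It had 7.003 and 7.29 in 35S::IaTCP1, 7.85 and 8.24 in 35S::TCP1, 7.01 and 7.02 in 35S::CYC, and 4.97 and 5.41 in the empty vector. The control values lay not far above the lower quartile of their arrays (4.48 and 4.52), and RMA values do not show whether a signal is above background. Every transgenic array lay above both empty vector arrays, and both 35S::TCP1 arrays lay above the other 2 transgenes. The log2 change against the empty vector was 1.96 for IaTCP1 (standard error 0.16, adjusted p = 1.68e-06 from limma), 2.86 for TCP1 (adjusted p = 2.05e-07) and 1.83 for CYC (adjusted p = 3.59e-06). Under IaTCP1 this was the largest change of all 77 plastid-encoded probe sets, and under TCP1 it was the 9th largest of all probe sets on the array. The order of the groups was TCP1, IaTCP1, CYC and empty vector. TCP1 exceeded CYC by 1.03 (adjusted p = 0.00055), which passed the 2-fold minimum narrowly, whereas IaTCP1 differed from CYC by 0.13 (95% interval -0.21 to 0.47, adjusted p = 0.673). IaTCP1 lay below TCP1 by a log2 difference of -0.90 (adjusted p = 0.00408), which misses the 2-fold minimum.

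*ndhE*, which encodes another small subunit of the membrane arm, had 7.09 and 7.64 in 35S::IaTCP1, 7.66 and 8.35 in 35S::TCP1, 7.23 and 7.88 in 35S::CYC, and 5.92 and 6.99 in the empty vector. The transgenic arrays again lay above the controls, narrowly for 35S::IaTCP1 replicate 1, and the 2 control arrays lay 1.07 apart. It rose for TCP1 by 1.55 (standard error 0.33, adjusted p = 0.00583) and for CYC by 1.103 (adjusted p = 0.0307), while its log2 change for IaTCP1 was 0.91 (95% interval 0.20 to 1.62, adjusted p = 0.07). These calls rest on single arrays, and both ended without variance moderation, where the spread comes from each probe set's own arrays alone (adjusted p = 0.191 for TCP1 and 0.297 for CYC). Without empty vector replicate 1 the change was 1.02 for TCP1 (adjusted p = 0.0539) and 0.57 for CYC (adjusted p = 0.281). Without 35S::TCP1 replicate 2 it was 1.21 for TCP1 (adjusted p = 0.0623), and without 35S::CYC replicate 2 it was 0.78 for CYC (adjusted p = 0.219). Without empty vector replicate 2, by contrast, it passed for IaTCP1 too, with 1.44 (adjusted p = 0.00576), as it did without 35S::IaTCP1 replicate 1, with 1.19 (adjusted p = 0.0499). The 3 transgenes did not differ from each other beyond their spread, with log2 differences of -0.64 between IaTCP1 and TCP1 (95% interval -1.35 to 0.07), -0.19 between IaTCP1 and CYC (-0.90 to 0.51) and 0.45 between TCP1 and CYC (-0.26 to 1.16).

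*ndhD* encodes one of the large proton-pumping subunits, and its start codon has to be made by RNA editing. It had 9.12 and 9.06 in 35S::IaTCP1, 8.87 and 9.48 in 35S::TCP1, 9.09 and 9.46 in 35S::CYC, and 7.30 and 8.04 in the empty vector. The groups did not overlap with the control, and the arrays of the 3 transgenes overlapped with each other. It rose by 1.42 for IaTCP1 (standard error 0.23, adjusted p = 0.000605), 1.504 for TCP1 (adjusted p = 0.000551) and 1.60 for CYC (adjusted p = 0.000229). Without variance moderation these 3 calls ended (adjusted p = 0.0944, 0.101 and 0.0752). Between transgenes its differences lay between -0.19 and -0.09 (adjusted p of 0.663 to 0.892), each with an interval reaching at most 0.68 from 0. Unlike *ndhG*, *ndhD* was thus not highest in 35S::TCP1, where its mean was 9.18 ± 0.43, against 9.28 ± 0.26 in 35S::CYC (SD, n = 2 each).

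*ndhA*, the membrane subunit next to the stromal arm, went the other way in sign. It had 11.12 and 10.65 in 35S::IaTCP1, 10.81 and 10.998 in 35S::TCP1, 11.35 and 10.93 in 35S::CYC, and 11.44 and 11.15 in the empty vector. Both arrays of 35S::IaTCP1 and of 35S::TCP1 lay below both control arrays, whereas those of 35S::CYC overlapped with them. The log2 changes were -0.40 for IaTCP1 (95% interval -0.77 to -0.04, adjusted p = 0.115), -0.39 for TCP1 (-0.75 to -0.02, adjusted p = 0.145) and -0.15 for CYC (-0.52 to 0.22, adjusted p = 0.596), so none passed the test. Among the 77 plastid-encoded probe sets these changes ranked 76th, 77th and 73rd from the top.

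*psaC* showed the widest range of the operon. It had 5.83 and 6.14 in 35S::IaTCP1, 6.96 and 7.69 in 35S::TCP1, 6.58 and 7.05 in 35S::CYC, and 4.29 and 4.60 in the empty vector. The control values lie near the lower quartile of their arrays (4.48 and 4.52), so *psaC* gave a weak signal there. RMA values do not show whether a signal is above background, and the folds of *psaC* hold only for the fitted values. It rose by 1.54 for IaTCP1 (2.91-fold, standard error 0.21, adjusted p = 0.000197), 2.88 for TCP1 (7.35-fold, adjusted p = 2.24e-06) and 2.37 for CYC (5.16-fold, adjusted p = 5.65e-06). As fitted, the changes for TCP1 and CYC were the largest of the plastid-encoded probe sets. Without variance moderation the call for IaTCP1 ended (adjusted p = 0.07). The order of the groups was TCP1, CYC, IaTCP1 and empty vector. IaTCP1 was lower than TCP1 by a log2 difference of -1.34 (adjusted p = 0.00225), the largest negative difference of all plastid-encoded probe sets in that comparison, in which 1 of the 7 operon genes and 0.343% of all probe sets were lower by the rule. Without 35S::TCP1 replicate 2 it was -0.97 (adjusted p = 0.0203), under the 2-fold minimum. IaTCP1 also lay below CYC with -0.83 (adjusted p = 0.0179), short of 2-fold, and TCP1 and CYC differed by 0.51 (95% interval 0.04 to 0.98, adjusted p = 0.133).

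Of the genes for the stromal arm, *ndhH* encodes the subunit that in complex I lines the quinone site. It had 5.54 and 5.40 in 35S::IaTCP1, 5.95 and 6.16 in 35S::TCP1, 5.36 and 5.76 in 35S::CYC, and 5.09 and 4.98 in the empty vector. These control values, too, lay not far above the lower quartile of their arrays (4.48 and 4.52). All transgenic arrays lay above the controls, and those of 35S::TCP1 lay above all others. It rose for TCP1 by 1.02 (standard error 0.13, adjusted p = 0.000138), just over 2-fold. Its changes of 0.44 for IaTCP1 (adjusted p = 0.03) and 0.52 for CYC (adjusted p = 0.0113) passed the test and not the fold minimum. The call for TCP1 ended with 0.97 without empty vector replicate 2, with 0.91 without 35S::TCP1 replicate 2 with 0.99 after cyclic loess scaling and, by its adjusted p of 0.0522, without variance moderation. TCP1 exceeded CYC by 0.50 (adjusted p = 0.0181), and IaTCP1 lay below TCP1 with -0.58 (adjusted p = 0.0177) and differed from CYC by -0.09 (95% interval -0.37 to 0.19).

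*ndhI*, whose protein carries iron-sulfur clusters in the stromal arm, had 12.86 and 12.68 in 35S::IaTCP1, 12.86 and 12.84 in 35S::TCP1, 13.04 and 12.88 in 35S::CYC, and 12.97 and 12.92 in the empty vector. Its log2 changes were -0.17 for IaTCP1 (95% interval -0.38 to 0.03), -0.10 for TCP1 (-0.31 to 0.11) and 0.01 for CYC (-0.20 to 0.22), with adjusted p of 0.232, 0.534 and 0.957. These intervals leave no room for a 2-fold change on this scale. The signal was close to the highest of each array, which lay between 13.86 and 14. Of the 209 probe sets with a mean of at least 12 over the 8 arrays, 1 rose under IaTCP1 (0.478%), 1 under TCP1 (0.478%) and 0 under CYC. Of all probe sets, 0.976%, 0.659% and 1.53% rose. Among the 209, 62, 45 and 50 had an unadjusted p under 0.05 from limma at any size of change.

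**Figure D2:**
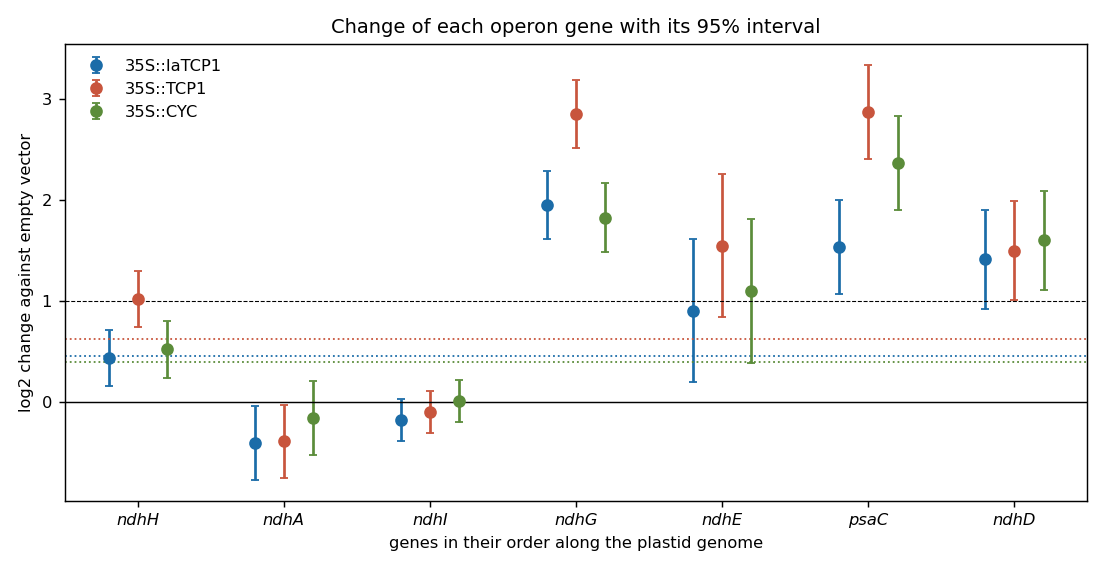
Log2 change against the empty vector for each operon gene, in the order along the plastid genome, for 35S::IaTCP1, 35S::TCP1 and 35S::CYC, with 95% intervals from limma. The dashed line marks 2-fold, and dotted lines mark the median of the 70 other plastid-encoded probe sets (0.45, 0.63 and 0.39). From *ndhG* to *ndhD* all points lie at 0.91 or above, and those of *ndhA* and *ndhI* at 0.01 or below.

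Over the 8 arrays, *ndhG*, *ndhE*, *psaC* and *ndhD* correlated with each other with r of 0.88 to 0.94, and *ndhH* with these 4 with r of 0.75 to 0.91. *ndhA* and *ndhI* correlated with r of 0.89 with each other and with -0.27 to -0.71 with the other members. These are descriptions over 8 arrays in 4 groups. After each array was set against its group mean, r was still 0.82 to 0.90 among *ndhG*, *ndhE*, *psaC* and *ndhD* and 0.91 between *ndhA* and *ndhI*, and -0.31 to -0.71 between these sets. These last values rest on 1 difference in each of the 4 groups.

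The 2 arrays of a group carry replicate numbers in the labels, which do not say what a number stands for. Taken within a number, the picture kept its shape. In number 1, the differences of *psaC* from the empty vector were 1.54 for IaTCP1, 2.67 for TCP1 and 2.29 for CYC, and in number 2 they were 1.54, 3.09 and 2.45. For *ndhG* they were 2.03, 2.87 and 2.04 in number 1 and 1.88, 2.84 and 1.62 in number 2. *ndhD* was at least 2-fold higher in every transgene within both numbers, with 1.81, 1.57 and 1.79 in number 1 and 1.02, 1.44 and 1.42 in number 2. *ndhE* gave 1.17, 1.74 and 1.31 in number 1, but 0.65, 1.36 and 0.89 in number 2, so that 2-fold was missed there for IaTCP1 and CYC. *ndhH* gave 0.46, 0.86 and 0.27 in number 1 and 0.42, 1.18 and 0.78 in number 2. *ndhA* stayed below 0 in all 6 differences, between -0.63 and -0.09, and *ndhI* lay between -0.24 and 0.07. Within number 1, 4 of 7 operon genes were at least 2-fold higher for each transgene, against 1.09%, 0.677% and 1.57% of all probe sets for IaTCP1, TCP1 and CYC. Within number 2 the counts were 3, 5 and 3 of 7, against 0.91%, 0.703% and 1.54%.

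**Figure D3:**
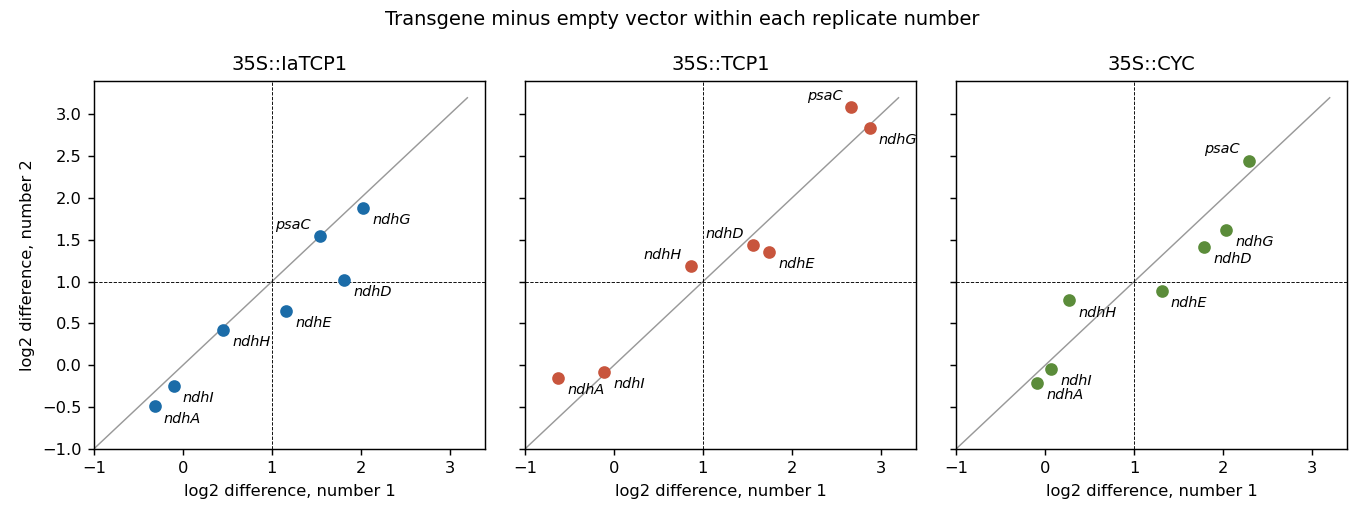
Difference (log2) of each transgene from the empty vector within replicate number 1 (x axis) and within number 2 (y axis) for the 7 operon genes, with the line of equal values and dashed lines at 2-fold. *ndhD* and *ndhE* fall below the line of equal values in all 3 panels, and *psaC* in 35S::TCP1 above it, with 2.67 and 3.09.

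Some operon genes also differed between the replicate numbers. In a fit with group and number, number 2 exceeded number 1 for *ndhE* by 0.74 (adjusted p = 0.00677) and for *psaC* by 0.45 (adjusted p = 0.0196), 2 of 7 genes, while 0.576% of all probe sets were higher in number 2 at the same adjusted p. *ndhE* was higher in number 2 in all 4 groups, by 0.56 in 35S::IaTCP1, 0.69 in 35S::TCP1, 0.65 in 35S::CYC and 1.07 in the empty vector. For *ndhD* the difference was 0.41 (adjusted p = 0.0683) and for *ndhG* 0.28 (adjusted p = 0.0657), and for *ndhA* it was -0.25 (adjusted p = 0.16), *ndhA* being lower in number 2 in every group but 35S::TCP1. Without 35S::CYC replicate 1 or without 35S::CYC replicate 2, none of the 7 passed this test, and without either empty vector array only *ndhE* did. Both *ndhE* and *psaC* had also risen under TCP1 and CYC.

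The operon was then set beside the rest of the plastid genome. Of the 70 plastid-encoded probe sets outside it, 11 rose for IaTCP1, 23 for TCP1 and 17 for CYC, and none fell (limma, while 7, 2 and 1 were lower with an unadjusted p under 0.05). Their median log2 changes were 0.45, 0.63 and 0.39, against 0.91, 1.504 and 1.103 for the 7 operon genes and 0.05, 0.03 and 0.02 for all probe sets. In each array the median of the 70 was subtracted from each operon gene. On this scale *ndhG* still changed by 1.74, 2.52 and 1.58 (IaTCP1, TCP1 and CYC), *psaC* by 1.32, 2.54 and 2.12, and *ndhD* by 1.197, 1.17 and 1.35. *ndhE* changed by 0.69, 1.22 and 0.85 and *ndhH* by 0.22, 0.69 and 0.28, while *ndhA* had -0.62, -0.72 and -0.40 and *ndhI* -0.39, -0.43 and -0.24. On this scale the mean change of 5 members was thus above 0 under each transgene. That of *ndhA* and *ndhI* was below 0, with neither of these past limma's test against the empty vector. Within replicate number 1, *ndhH* had -0.08 for IaTCP1 and -0.04 for CYC on this scale. Without the subtraction, its change for IaTCP1 (0.439) was below the median change of the 70 (0.4545). Since RNA of whole inflorescences was measured, a larger share of green cells and more plastid RNA per cell cannot be told apart. Of 26 nuclear photosynthesis genes, markers of green tissue, *RCA*, *LHCB4.1* and *ATPC1* were named in the tables used. Their changes lay between -0.21 and -0.04, none past the test. In each comparison 1 of these 3 was lower with an unadjusted p under 0.05 from limma. Their signal was high, between 11.83 and 13.23 in every array, and the share of green cells was not tested. Controls of RNA quality and rRNA also moved with the groups, and their part was not tested.

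**Figure D4:**
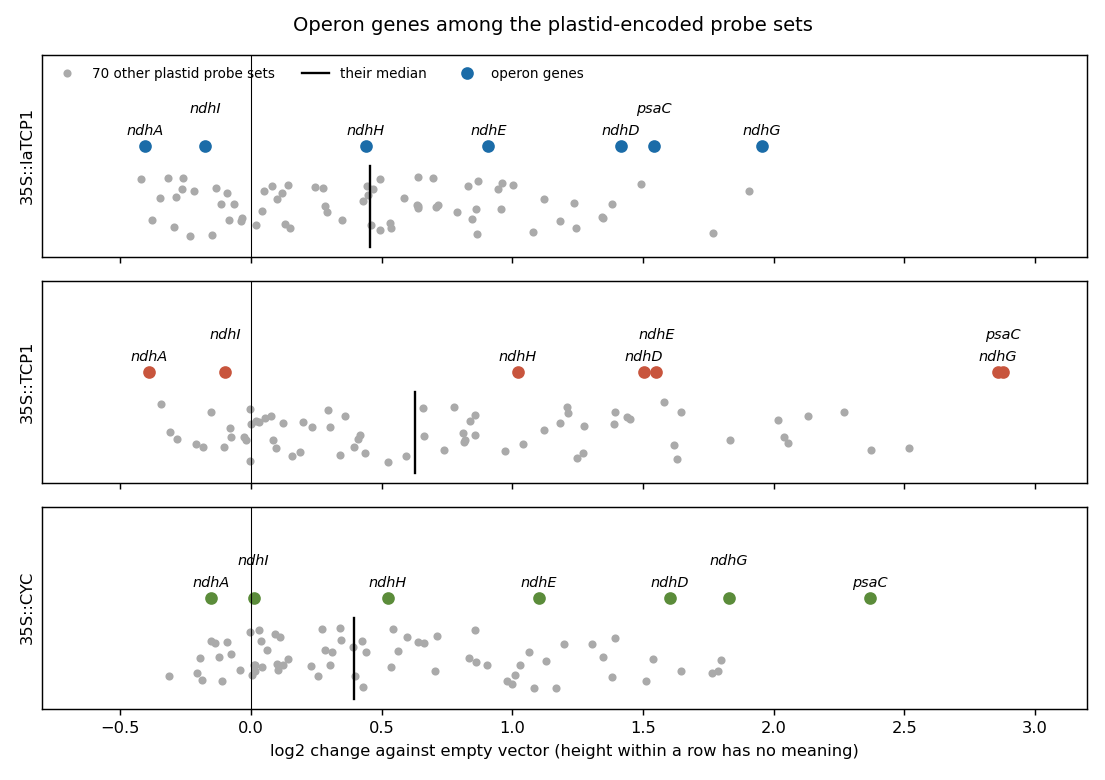
Log2 change against the empty vector of the 7 operon genes (coloured, named) and of the 70 other plastid-encoded probe sets (grey, median as a black bar), 1 row per transgene. *psaC* lies right of all other plastid points for 35S::TCP1 and 35S::CYC and *ndhG* for 35S::IaTCP1, and *ndhA* lies at or near the left end in each row.

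Which plastid probe sets rose went with their signal, a division made after the values were seen. The 70 were split by their mean over all 8 arrays, which reflects the probes as well as the transcript. In the lower 35 (means of 4.89 to 9.57) 11 rose for IaTCP1, 22 for TCP1 and 16 for CYC, with median changes of 0.86, 1.27 and 0.98. In the upper 35 (means of 9.64 to 13.54) 0, 1 and 1 rose (limma, while 13, 6 and 5 had an unadjusted p under 0.05), with medians of 0.02, 0.08 and 0.04. The operon followed the same division. *ndhH*, *psaC*, *ndhG*, *ndhE* and *ndhD* had means of 5.53, 6.14, 6.85, 7.35 and 8.80, and *ndhA* and *ndhI* had 11.06 and 12.88. Among all probe sets with means from 5 to 9, 1.39%, 1.04% and 2.32% rose, and of those with means from 10 to 12, 0.73%, 0.487% and 0.811% did. The part of signal strength in the result was not tested.

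The other plastid genes for NDH subunits are spread over the genome. Of these 5, *ndhF* and *ndhB* rose for TCP1, by 1.39 (adjusted p = 4.26e-06) and 1.18 (adjusted p = 0.000902), and none rose for IaTCP1 or CYC, where *ndhF*, a proton-pumping subunit, had 0.94 and 0.90 (adjusted p = 5.26e-05 and 8.11e-05). *ndhF* had 6.96 and 6.998 in 35S::IaTCP1, 7.24 and 7.61 in 35S::TCP1, 6.92 and 6.96 in 35S::CYC, and 6.03 and 6.04 in the empty vector, again with the controls lowest. *ndhB*, a further membrane subunit whose probe set matches both copies in the inverted repeat, changed by 0.64 for IaTCP1 and 0.66 for CYC. *ndhC*, *ndhJ* and *ndhK*, which form an operon of their own, had changes between -0.26 and 0.45, none past the test. Within that operon *ndhK* had 7.44 and 7.94 in 35S::IaTCP1, 6.86 and 8.23 in 35S::TCP1, 7.01 and 8.17 in 35S::CYC, and 6.62 and 7.87 in the empty vector, so that the replicate numbers differed by more than the groups.

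*psaC* changed more than the other plastid genes of photosystem I, which differed from it in signal. *psaB*, *psaI* and *psaJ* lay at 9.24 or above in every array, and only *psaA* (5.49 to 6.47) had a signal like that of *psaC*. *psaA* and *psaB* encode the reaction centre of photosystem I. Their log2 changes were 0.64 and 0.28 for IaTCP1, 0.82 and 0.34 for TCP1, and 0.34 and 0.10 for CYC. The part of signal strength was not tested. The changes of *psaA* passed the test for IaTCP1 (adjusted p = 0.00295) and TCP1 (adjusted p = 0.000685) without reaching 2-fold. The small subunit genes *psaI* and *psaJ* lay between -0.19 and 0.59, with no adjusted p under 0.27. None of these 4 rose, and their medians were 0.21, 0.47 and 0.17. Beyond the ends of the operon, *rps15*, for a protein of the small ribosomal subunit, had changes of 0.72, 1.27 and 1.00 (adjusted p = 0.267, 0.0642 and 0.128), and *ccsA*, for a cytochrome assembly factor, had -0.03, 0.23 and -0.19 (adjusted p of 0.398 to 0.913).

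The probe sets most like the mean of the operon lay in other plastid operons. Each array's mean of the 7 members (each centred on its mean) was correlated with 13506 probe sets that name 1 gene. This mean, of which each member is itself a part, followed 5 of the members (r of 0.91 to 0.99). *ndhA* (-0.55) and *ndhI* (-0.33) ran against it. Over the 8 arrays the highest r were those of *psbT* (0.99), *ycf4* (0.99), *psbB* (0.98), *cemA* (0.98) and *petN* (0.98), all plastid-encoded, as were 9 of the first 20. *psbB* and *psbT* encode photosystem II subunits, *petN* a small subunit of the cytochrome b6f complex, and *ycf4* a factor for photosystem I assembly. *petN* rose by 1.77, 2.52 and 1.79, close to the changes of *ndhG*, and *ycf4* by 1.49, 2.37 and 1.80. By complex, 3, 5 and 4 of 6 cytochrome b6f genes rose for IaTCP1, TCP1 and CYC, as did 3, 5 and 4 of 15 photosystem II genes and 0, 2 and 2 of 20 ribosomal protein genes. Of 4 RNA polymerase genes 1, 2 and 2 rose, of 6 ATP synthase genes 1, 2 and 2, and of 10 others 3, 5 and 3.

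Nuclear genes for the same complexes gave no rise among those measured. Of 20 nuclear NDH subunit genes 4 were named in the tables used, *NDHL*, *NDHN*, *NDHS* and *NDHV*, with median changes of -0.11, -0.05 and -0.14. *NDHN* had -0.46 for CYC (adjusted p = 0.0209), and *NDHL* had at most -0.26 (adjusted p = 0.064). Of 13 nuclear photosystem I genes, *PSAE1* and *PSAN* were named, and *PSAN* had -0.30 for IaTCP1 (adjusted p = 0.0227) and 0.15 for TCP1. Of 11 factors that edit or process *ndh* transcripts 5 were named. *CRR21* and *CRR28*, which edit *ndhD* sites, had -0.29 and -0.33 for CYC (adjusted p = 0.0319 and 0.0284) and at most 0.19 in size for the others. *OTP84*, another editing factor, named after its values were seen, had 0.28 for IaTCP1 (adjusted p = 0.0343), 0.25 for TCP1 (adjusted p = 0.0642) and 0.05 for CYC. None of these 5 reached 2-fold, and neither did *RPOTmp*, an organellar RNA polymerase, at 0.07 or less, nor *PGRL1B*, of the other route of cyclic electron flow, with 0.24, -0.07 and 0.39 (adjusted p = 0.0908, 0.643 and 0.0103). Of 22 mitochondrial probe sets, chosen by symbol, none rose or fell by the rule, and their medians were 0.16, 0.26 and 0.12. With an unadjusted p under 0.05 from limma, 6, 14 and 5 were higher. Some passed the adjusted test short of 2-fold. *cox1* did so under each transgene, with 0.77, 0.52 and 0.65 (adjusted p = 0.00252, 0.0331 and 0.00754). *nad4* did so for IaTCP1 and CYC, with 0.78 and 0.87 (adjusted p = 0.0395 and 0.0231).

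Some control probe sets had group means that moved with those of *psaC* and *ndhG*. Actin is covered at both ends of its transcript, and the 3′ minus 5′ difference (log2) was 1.36 and 1.37 in 35S::IaTCP1, 1.75 and 1.77 in 35S::TCP1, 1.58 and 1.68 in 35S::CYC, and 1.08 and 1.22 in the empty vector. The 25S rRNA control had 11.18 and 10.74, 11.27 and 10.93, and 11.17 and 10.92 in the same transgenic groups, against 10.52 and 10.42 in the empty vector. The 5S rRNA control had 5.30 and 5.74 in 35S::IaTCP1, 6.57 and 7.17 in 35S::TCP1, 5.18 and 5.60 in 35S::CYC, and 4.79 and 4.84 in the empty vector. In these 3 measures, as in *psaC* and *ndhG*, both empty vector arrays were lowest and 35S::TCP1 had the highest mean. For actin and 25S rRNA the order of the group means was that of *psaC*, and for 5S rRNA it was that of *ndhG*. Within the groups, the actin difference and 5S rRNA were higher in replicate number 2 in all 4 groups, as *psaC* and *ndhE* were. The 25S rRNA control was lower there in all 4 groups. *ndhA* and *ndhI*, with high means of 11.06 and 12.88 over the 8 arrays, were not lowest in the empty vector. The ubiquitin difference was also lowest in the empty vector (-0.40 and -0.43, against -0.35 to -0.14), while that of GAPDH overlapped between the groups. Plastid transcripts, like rRNA, mostly lack the long poly(A) tail of nuclear mRNA, and how the cDNA was primed is not given in the sources used here. The part of RNA quality and priming in the changes of the operon was not tested.

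**Figure D5:**
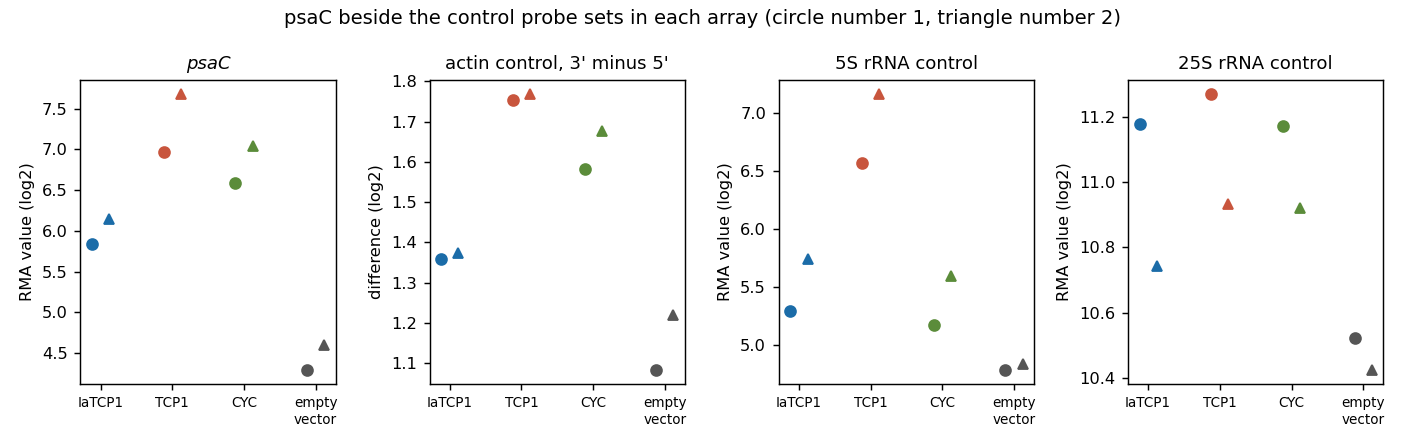
*psaC* (RMA value, log2), the 3′ minus 5′ difference of the actin control (log2) and the 5S and 25S rRNA controls (RMA values, log2) in each array, with circles for replicate number 1 and triangles for number 2. In each panel both empty vector arrays lie lowest and a 35S::TCP1 array lies highest.

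Between the transgenes, few differences in the operon passed the rule. In 35S::IaTCP1 against 35S::TCP1 all 7 operon genes had negative differences, with a median of -0.58, and *psaC* alone was lower by the rule, a call that ended without variance moderation (adjusted p = 0.187). Within replicate number 1 the differences of *ndhA* (0.31), *ndhD* (0.25) and *ndhI* (0.0056) were above 0, and within number 2 all 7 were below 0. In 35S::IaTCP1 against 35S::CYC none of the 7 passed (limma, 1 with an unadjusted p under 0.05, *psaC*), while 2.72% of all probe sets did in either direction. Without 35S::CYC replicate 1 *psaC* passed there, with -1.06 (adjusted p = 0.0108). In 35S::TCP1 against 35S::CYC, *ndhG* was higher (1 of 7, against 0.607% of all probe sets), and without 35S::TCP1 replicate 2 its difference was 0.83, below 2-fold. Without variance moderation this call ended too (adjusted p = 0.0834). The 70 other plastid probe sets had medians of -0.19, -0.05 and 0.13 in these comparisons, with 1 lower in the first and none passing in the others.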

How the data were processed

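The authors hybridized 8 ATH1 arrays and deposited log2 intensities after RMA (Partek and RMA per the submitters' notes, versions not given in the sources used here). These values were used as deposited. After 64 control probe sets were left out, limma 3.58.1 in R 4.3.3 (lmFit, eBayes, 1 mean per group over all 8 arrays, 4 residual and 7.895 prior degrees of freedom) was fitted to 22746 probe sets. Of these, 13513 name 1 gene in the platform table, 503 several and 8730 none, and plastid genes were identified through RefSeq (TAIR10.1). Members and gene lists were chosen with earlier results of these data known. Named are all members, all other plastid *ndh* and photosystem I genes, up to 4 called genes of each list (or the 2 of largest change), and the 5 most similar probe sets. Alternatives were other scalings, a filter on low values, other fold minimums, unadjusted p, other variance settings, the replicate number as a block, and leaving out each array. Figures were drawn with matplotlib 3.10.9. Array intensities carry no depth. The level of the *TCP1* transgene is not analysed here.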

Additional observations from a re-analysis of the deposited data

How the results depend on the processing

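Against the empty vector, counts of operon genes that rose (3, 5 and 4 of 7 for IaTCP1, TCP1 and CYC) fell to 1, 2 and 2 without variance moderation, which left only *ndhG*, joined by *psaC* for TCP1 and CYC. Between transgenes no gene then passed (0 for IaTCP1 against TCP1 and 0 for TCP1 against CYC). With a fold minimum of 1.5, 2 passed for IaTCP1 against TCP1 and 1 against CYC, and without a fold minimum 3, 1 and, for TCP1 against CYC, 2. The shares of all probe sets at these looser minimums are not given here, so these counts have no background beside them. Leaving out 1 array gave 3 to 4, 3 to 5 and 3 to 4 genes against the empty vector, lowest for TCP1 without 35S::TCP1 replicate 2, and 0 to 2 for IaTCP1 against TCP1, 0 to 1 for IaTCP1 against CYC and 0 to 1 for TCP1 against CYC. The 2 genes that differed between replicate numbers became 4 with cyclic loess, 4 with a mean of at least 5, 5 with a trended variance, and 0 to 3 when 1 array was left out.

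Sign changed only in small differences that did not pass, when 1 array was left out. These ranged from -0.36 to 0.057 for *ndhA* and -0.069 to 0.092 for *ndhI* in CYC against the empty vector. In IaTCP1 against TCP1 they ranged from -0.25 to 0.22 for *ndhA*, -0.17 to 0.016 for *ndhI* and -0.39 to 0.22 for *ndhD*, in IaTCP1 against CYC from -0.29 to 0.11 for *ndhH*, -0.016 to 0.27 for *ndhG* and -0.52 to 0.13 for *ndhE*, and in TCP1 against CYC from -0.41 to 0.21 for *ndhD*. Why these results moved was not tested.

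Same-numbered arrays deviated together (r of 0.16 to 0.52 in 6 pairs of groups), but with 2 numbers this does not show pairing. With the replicate number as a block the counts of operon genes were 3, 5 and 4 against the empty vector and 1, 0 and 1 between transgenes, as without it, and over all probe sets 757, 437 and 700 passed against the empty vector, against 756, 435 and 700. Array medians made equal, only the 2 groups compared and unadjusted p changed no count between groups by more than 1.5 times. With 2 arrays a group, all intervals rest on a spread shared by the 4 groups.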
